A study of Homo sapiens with 12 samples.

Results

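Mitochondrial ribosomal protein genes were taken as the protein-coding genes whose symbol starts with MRPL or MRPS followed by a number, which gave 78 genes of the 64252 gene IDs in the deposited tables. Of these, 49 carry MRPL symbols and 29 carry MRPS symbols, and they lie on 21 chromosomes, with at most 8 on any one of them. The RNA was enriched for polyadenylated transcripts and came from MDA-MB-231, an established human line from a breast cancer that lacks hormone receptors and amplified ERBB2. The cells were transfected by lipofection with plasmid DNA for Dicer, an RNase III enzyme whose products include the mature microRNAs. In 3 of the 4 groups the plasmid carried Dicer with a mutation, numbered 1, 2 or 3 in the labels and not named further, and in the fourth it carried wild-type Dicer. Each group held 3 libraries, and all 12 libraries came from transfected cells. The sample labels do not describe the endogenous DICER1 gene of these cells.

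No empty-plasmid or untransfected cells were analysed here. The labels number the wild-type libraries and not the mutant ones, whose numbers here are only names. Whether each library had its own culture is not stated, and the p-values below rest on a spread between libraries that may be technical. DICER1, whose counts cannot separate plasmid from endogenous transcripts, stood at 43.6 ± 1.51, 45.2 ± 0.73 and 39.4 ± 0.637 CPM (counts scaled to a library of 1e6) with mutations 1, 2 and 3, against 39.9 ± 11 CPM with wild type (SD, n = 3 each), and was not called in any comparison. In bulk RNA, fewer cells that express a gene and less RNA per cell cannot be told apart.

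The mitochondrial ribosome translates the few mRNAs encoded in mitochondrial DNA, all of which specify subunits of the oxidative phosphorylation complexes. Its ribosomal RNAs come from the mitochondrial genome, while its proteins are encoded in the nucleus, made on cytosolic ribosomes and imported. Many of these proteins descend from bacterial ribosomal proteins, and others were added during the evolution of mitochondria. The promoters of their genes are known for sites of NRF1, of ETS-family factors such as GABPA, and of YY1.

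Promoter windows of 300 bases, 250 before and 50 after the start, were available from RefSeq (GRCh38.p14) for 70 of the 78 members. They were searched on both strands for 3 motifs: NRF1 as GCGC, then any base, then TGCGC, ETS as CCGGAAG and YY1 as AANATGGCG. The ETS letters were present in 42.9% of members, against 16.5% of 15842 protein-coding genes with a window of the same length. The YY1 letters were present in 25.7% of members, against 5.59% of those genes, and the NRF1 letters in 12.9% of members, against 9.66%. At least 1 of the 3 motifs was found in 70.0% of members, against 27.5% of protein-coding genes. A match is a description of the sequence and not evidence of binding, and no test was made of these shares.

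The following stretches, 5′ to 3′ on the strand of the gene, are shown because they hold a match in members whose transcript level differed between Dicer mutations 1 and 2, as described further on. Capitals mark the match. MRPL58, chr17:75012520-75012669, plus strand, has the ETS letters 1 base before its RefSeq start, and these 150 bases overlap no annotated exon. For the others, 30 bases around the match are given.
MRPL58 promoter: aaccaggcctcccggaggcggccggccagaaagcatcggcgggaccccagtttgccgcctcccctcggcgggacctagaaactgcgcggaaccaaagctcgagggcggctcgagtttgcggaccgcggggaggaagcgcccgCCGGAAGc
MRPS18C ETS match, chr4:83455825-83455854, plus strand: gggctcgcggaCCGGAAGcacgcataaact
MRPL43 ETS match, chr10:100987498-100987527, minus strand: gtcgtcccggaaCCGGAAGcctcgaggttt
MRPS9 NRF1 match, chr2:105038019-105038048, plus strand: cgcgccattaGCGCCTGCGCcgtctctagg
MRPL57 NRF1 match, reverse complement, chr13:21176574-21176603, plus strand: cctcggctctGCGCAGGCGCagtcctctct
MRPL36 YY1 match, reverse complement, chr5:1799854-1799883, minus strand: ccccccccgcCGCCATCTTccttcctggca

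MRPS18C, MRPL58, MRPS9, MRPL57 and MRPL36 were lower with mutation 1 than with mutation 2, and MRPL43 was higher. The call of MRPL36 was lost without mutation 1 replicate 1 and without mutation 1 replicate 2, at edgeR adjusted p = 0.0592 and 0.0589. Among members lower with mutation 1 than with mutation 2, 50% of 34 with a window held the ETS letters, against 38.2% of 34 tested members that were not lower. The YY1 letters were held by 23.5% of the lower members and 26.5% of the others, and the NRF1 letters by 11.8% of each.

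Library totals ran from 13507341 to 17078273 counts, of which members held 36684 to 60402, or 0.261% to 0.409%. The 6 markers of MDA-MB-231 cells (VIM, CD44, EGFR, AXL, FOSL1, CAV1) summed to 6570 to 6696, 4965 to 5015 and 5782 to 5835 CPM with mutations 1, 2 and 3, against 4500 to 5406 CPM with wild type. The 15 markers of other cell types summed to 105 to 121, 34.3 to 35.4 and 44.3 to 46.2 CPM with the mutations, against 34.2 to 45.1 CPM with wild type. Within each group 6 or 7 of these 15 were at 0, and PDGFRB, a receptor of mesenchymal cells, made up most of the mutation 1 sum at 79.2 ± 4.74 CPM; its part in the results below was not tested. Wild-type replicate 1 stood apart from the other wild-type libraries. Its mitochondrially encoded mRNAs summed to 12413 CPM, against 48005 and 48362 CPM in wild-type replicates 2 and 3, and 8 tested members lay more than 1.5-fold above and 2 more than 1.5-fold below the mean of those replicates. The median SD of a member, as a percentage of its mean, was 5.48%, 5.1% and 3.89% with mutations 1, 2 and 3 and 9.51% with wild type. Counts of all members called between 2 groups are therefore given with and without wild-type replicate 1. Those of smaller lists are given without it only in part. The 3 mutations are also compared directly.

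Levels are TMM-scaled CPM as mean ± SD of 3 libraries. A gene was called where the edgeR quasi-likelihood test gave a Benjamini-Hochberg adjusted p under 0.05 over 15094 genes. The filter on low counts passed 76 members, 48 MRPL and 28 MRPS. MRPS18B, 1 of the 3 paralogues of bacterial S18, had 0 counts in every library, which at 3 counts allows up to 0.239 TMM-scaled CPM in a library, and MRPL45, the exit-site protein that faces the inner membrane, had 2 counts in all. PPP1R10, which starts 903 bases from MRPS18B on chromosome 6, was also at 0. The deposited counts left out read pairs with a mapping quality under 10, and the part of that limit in these zeros was not tested. Exon bases of 41 members are shared with another gene, and the counting assigned pairs without regard to strand. MRPS36, known in RefSeq as KGD4, matches the symbol rule but is a subunit of the α-ketoglutarate dehydrogenase complex, and it is included in every count of members.

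Per kilobase of exon, the 76 tested members ranged from 0.634 to 90.1 RPKM on average over 12 libraries. MRPL14, a large subunit protein with a bacterial homologue, was the highest, at 83.3 ± 3.77, 86.0 ± 5.89 and 92.2 ± 2.36 RPKM with mutations 1, 2 and 3 and 98.7 ± 29.9 RPKM with wild type. MRPS34 averaged 73.4, MRPS10 61.7, MRPL33 54.1 and MRPL51 52.8 RPKM over all libraries, and their order differed between groups. MRPL51 was at 44.0 ± 0.889, 41.1 ± 2.39 and 39.6 ± 1.49 RPKM with mutations 1, 2 and 3 and 86.5 ± 16.7 RPKM with wild type, where it stood above MRPS34. MRPL33 was at 75 ± 1.46 RPKM with mutation 1, above MRPS10 at 66.6 ± 1.80, and at 39.9 ± 16.1 RPKM with wild type, below MRPS10 at 63.9 ± 11.7. The wild-type spread of MRPL14 covers the wild-type mean of MRPS34, 78.0 ± 4.76 RPKM, and that of MRPL33 covers MRPL37 at 40.9 ± 13.3 RPKM. The 5 lowest were MRPS17 at 1.72, MRPL53 at 1.59, MRPL46 at 1.07, MRPL38 at 0.969 and MRPS24 at 0.634 RPKM. All of these 5 share exon bases with another gene, as do MRPL33 and MRPL51 among the 5 highest. Leaving out pairs that fall on both genes can lower a count, and its part in these levels was not tested.

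With mutation 1, most members that changed were lower than with wild type. Of 76 members, 44 fell (57.9%), while 9 rose (11.8%), against 36.5% lower and 32.5% higher among all 15094 genes tested. The median log2 fold change of members was -0.43, and that of all genes -0.04. Without wild-type replicate 1, 45 fell, 18 rose and the median was -0.41, and the background was 42.5% lower and 40.2% higher of 15806 genes.

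**Figure D1:**
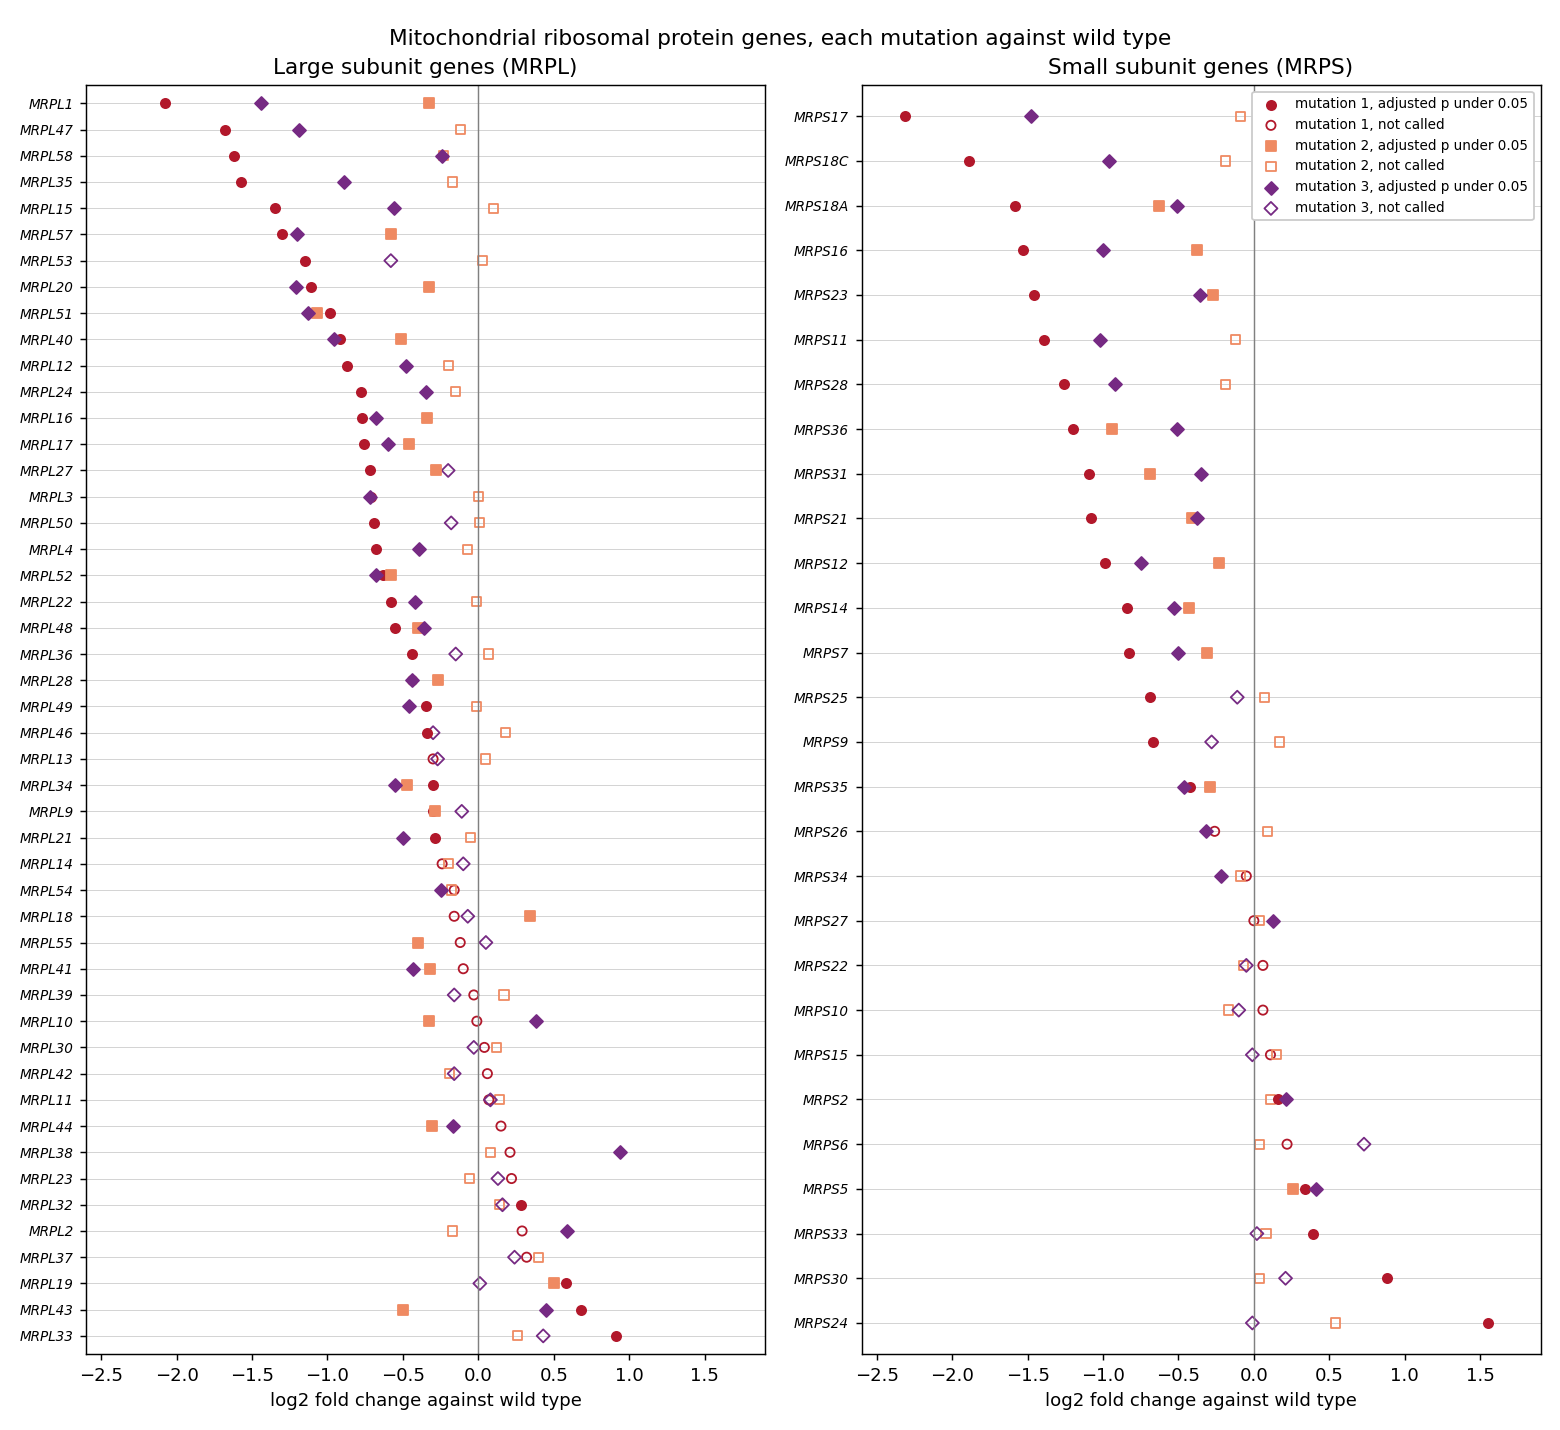
Log2 fold change of each tested member (rows, ordered by mutation 1) against wild type for mutation 1 (circles), mutation 2 (squares) and mutation 3 (diamonds), with large subunit symbols on the left and small subunit symbols on the right; filled marks passed adjusted p under 0.05. Mutation 1 marks reach -2.31 for MRPS17 and -2.08 for MRPL1, and most rows lie left of 0.

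The deepest decrease with mutation 1 was in MRPS17, the homologue of bacterial S17 in the small subunit (chr7:55951819-55956501). Its levels were 0.984, 1.41 and 1.20 CPM in the mutation 1 libraries, against 6.23, 4.41 and 7.30 CPM in the wild-type libraries. Every mutation 1 library was below every wild-type library, and the log2 fold change was -2.31 ± 0.24 (SE; edgeR, adjusted p = 7.93e-06). MRPS17 shares 583 exon bases with NIPSNAP2 and another gene on its strand. MRPL1, the protein of the mobile L1 stalk (chr4:77862520-77952790), shares no exon with another gene. It had 6.53, 7.64 and 7.89 CPM with mutation 1, against 29, 34.3 and 30.2 CPM with wild type. The groups did not overlap, and MRPL1 fell by 2.08 on the log2 scale (SE 0.11, edgeR adjusted p = 5.28e-08).

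MRPS18C, another S18 paralogue, was at 4.64, 4.63 and 4.06 CPM with mutation 1, against 13.4, 18.4 and 17.8 CPM with wild type, a log2 fold change of -1.89 ± 0.13 (adjusted p = 4.29e-07). Its exons overlap ABRAXAS1 on the other strand over 1956 bases. MRPL47, which lines the polypeptide exit, was at 15.7, 13.7 and 14.6 CPM with mutation 1, against 49, 46.7 and 45.0 CPM with wild type (log2 fold change -1.68 ± 0.08, adjusted p = 2.05e-08). MRPL58, a peptidyl-tRNA hydrolase of the large subunit also known from rescue of stalled ribosomes, was at 10.6, 9.79 and 9.72 CPM with mutation 1, against 29.8, 31.8 and 31.3 CPM with wild type (log2 fold change -1.62 ± 0.09, adjusted p = 8.38e-08). In all of these genes, which were chosen for lack of overlap, the wild-type libraries lay above the mutation 1 libraries, wild-type replicate 1 included. MRPS18A, MRPL35, MRPS16, MRPS23, MRPS11 and MRPL15 followed, with mutation 1 log2 fold changes against wild type of -1.58, -1.57, -1.53, -1.46, -1.39 and -1.35.

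A smaller set of members was higher with mutation 1. MRPL33, a small protein of the large subunit with a bacterial homologue, was at 115, 118 and 114 CPM with mutation 1, against 89.9, 48.8 and 45.6 CPM with wild type. The highest wild-type value was that of replicate 1, and the log2 fold change was 0.91 ± 0.20 (adjusted p = 0.0023) with it and 1.29 without it. MRPS30, which despite its symbol sits in the large subunit, was at 68.6, 70.8 and 65.1 CPM with mutation 1, against 31.1, 40.8 and 39.2 CPM with wild type (log2 fold change 0.88 ± 0.09, adjusted p = 9.54e-06). MRPL43 stood at 101 ± 1.92 CPM with mutation 1, against 62.8 ± 13 CPM with wild type, and MRPL19 at 40.2 ± 0.157 CPM, against 26.8 ± 9.09 CPM. Their log2 fold changes were 0.68 ± 0.11 and 0.58 ± 0.17, and the call of MRPL19 was lost in a fit of only these groups (adjusted p = 0.0929). MRPS24, MRPS33, MRPS5, MRPL32 and MRPS2 were the other members called higher with mutation 1, at 1.55, 0.39, 0.34, 0.28 and 0.16 on the log2 scale. The calls of MRPS33, MRPL32 and MRPS2 were lost in a fit of only these groups, at adjusted p = 0.165, 0.162 and 0.132. Each was also lost without some single libraries, at adjusted p of 0.0633 to 0.125 for MRPS33, 0.0595 to 0.128 for MRPL32 and 0.0526 to 0.0833 for MRPS2. MRPS24 was at no more than 3.59 CPM in any library and shares 606 exon bases with the URGCP-MRPS24 readthrough gene.

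With mutation 2, members lay closer to wild type. Of 76 members, 28 fell (36.8%) and 3 rose (3.95%), against 20.1% lower and 16.9% higher among all genes. In a fit of only these groups 13 members were lower and 0 higher by edgeR, with 2 higher at an unadjusted p under 0.05. The share of all genes in that fit is not given. DESeq2 on all libraries called 3 members higher. The member median was -0.16 and the median of all genes -0.01. Without wild-type replicate 1, 35 fell, 16 rose and the median was -0.12, against 34.9% lower and 33% higher of all genes.

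MRPL51, a mitochondria-specific protein of the large subunit, had the largest decrease with mutation 2. It was at 67.7, 60.3 and 63.4 CPM with mutation 2, against 104, 150 and 148 CPM with wild type, a log2 fold change of -1.07 ± 0.12 (edgeR adjusted p = 9.37e-05). Wild-type replicate 1 was the lowest of its group and still above each mutation 2 library. MRPL51 shares 486 exon bases with NCAPD2 on the other strand. MRPS36 was at 8.65 ± 2.44 CPM with mutation 2 and 16.6 ± 1.35 CPM with wild type, MRPS31 at 11.7 ± 1.12 and 19.0 ± 3.81 CPM, and MRPL57 at 26.1 ± 1.88 and 39.0 ± 4.26 CPM. Their log2 fold changes were -0.94, -0.69 and -0.58 (adjusted p = 0.00137, 0.00285 and 0.00191).

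MRPS18A, the S18 paralogue found in the large subunit, was at 11.2 ± 0.906 CPM with mutation 2 and 17.4 ± 4.47 CPM with wild type (log2 fold change -0.63 ± 0.17, adjusted p = 0.0137). Its call was lost when mutation 2 replicate 2 was left out, with an adjusted p of 0.0595, and in a fit of only these groups, at 0.0978. The 3 members called higher with mutation 2 were MRPL19 at 0.50, MRPL18 at 0.34 and MRPS5 at 0.26 on the log2 scale. MRPL18, a protein of the central protuberance, was at 61.4, 63.4 and 61.1 CPM with mutation 2, against 53.9, 45.6 and 47.6 CPM with wild type, without overlap. In a fit of only these groups the calls of MRPL19, MRPL18 and MRPS5 were all lost, at adjusted p = 0.198, 0.0538 and 0.112. The call of MRPL19 was also lost without the low-count filter and without any 1 library other than wild-type replicate 1, at adjusted p of 0.0732 to 0.142.

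With mutation 3, 41 members fell (53.9%) and 7 rose (9.21%), against 31.2% lower and 28.1% higher among all genes. The member median was -0.31, and that of all genes -0.01. Without wild-type replicate 1, 45 fell, 17 rose and the median was -0.26, against 38.8% lower and 38.2% higher of all genes. The comparisons with wild type share the same wild-type libraries, so that a decrease common to them is not independent evidence.

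MRPS17 was again lowest relative to wild type, at 2.38, 2.15 and 1.85 CPM with mutation 3 and a log2 fold change of -1.48 ± 0.22 (adjusted p = 0.000195). MRPL1 was at 10.4, 12.1 and 12 CPM with mutation 3, a log2 fold change of -1.44 ± 0.11 (adjusted p = 1.15e-06). For both genes the mutation 3 libraries lay below the wild-type values given above without overlap. MRPL20, whose bacterial homologue acts early in large subunit assembly, was at 18.8, 18.1 and 17.2 CPM with mutation 3, against 41.4, 42.0 and 42.4 CPM with wild type (log2 fold change -1.21 ± 0.07, adjusted p = 3.09e-07). MRPL57 and MRPL47 followed at -1.20 and -1.19.

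The largest increase with mutation 3 was that of MRPL38, a protein of the central protuberance, at 5.13, 5.09 and 5.77 CPM with mutation 3, against 1.84, 3.91 and 2.52 CPM with wild type (log2 fold change 0.94 ± 0.26, adjusted p = 0.00878). MRPL2, which lies near the peptidyl transferase centre, was at 85.4 ± 3.79 CPM with mutation 3 and 56.7 ± 14.1 CPM with wild type. Its log2 fold change was 0.59 ± 0.13 (adjusted p = 0.0029), and 0.82 without wild-type replicate 1. MRPL43, MRPS5 and MRPL10 rose by 0.45, 0.41 and 0.38 on the log2 scale, and MRPS2 and MRPS27 by 0.21 and 0.13. In a fit of only these groups the calls of MRPL2, MRPL43, MRPS2 and MRPS27 were lost, at adjusted p = 0.0521, 0.0747, 0.0668 and 0.224. Those of MRPS2 and MRPS27 were also lost without the low-count filter, at 0.0547 and 0.235, and that of MRPS27 without each single library of mutation 1 or mutation 3 and without wild-type replicate 2 or 3, at 0.0602 to 0.172. MRPL38 shares 1373 exon bases with a gene on its strand, and MRPL2 shares 373 with KLC4 on the other strand.

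**Figure D2:**
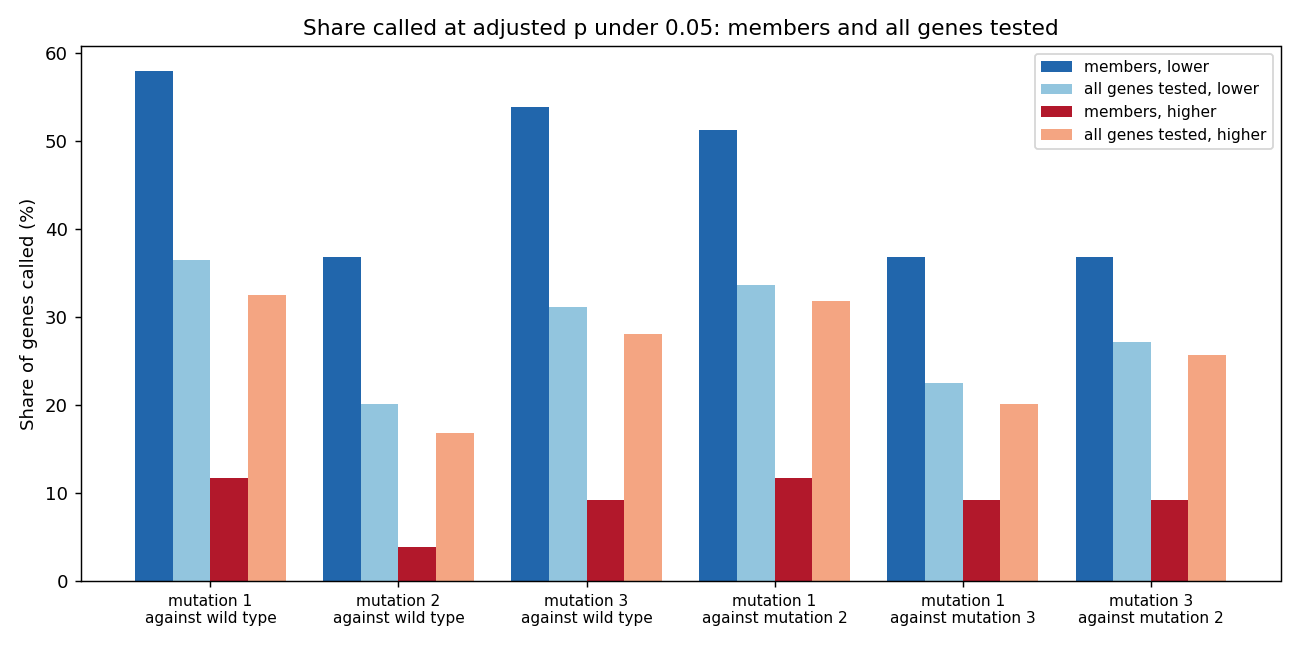
Share of the 76 tested members and of all 15094 genes called lower or higher (vertical axis, percent) in each of the 6 comparisons (horizontal axis). Members were called lower in 57.9% and higher in 11.8% with mutation 1 against wild type, while all genes were split at 36.5% and 32.5%.

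The direct comparisons between mutations do not use the wild-type level. An edgeR F test over the 3 mutations called 54 of 76 members (71.1%), close to the 72.5% of all genes. It called 69 without wild-type replicate 1, a fit whose share of all genes is not given. By group means, 31 members were lowest with mutation 1 and highest with mutation 2, with mutation 3 between them, and 12 were lowest with mutation 3 and highest with mutation 2. Each of the other 4 orders held 7 to 9 members. The summed level of members was 2886 ± 33.2 CPM with mutation 1, 3200 ± 54.7 CPM with mutation 2, 2993 ± 19.8 CPM with mutation 3 and 3513 ± 236 CPM with wild type.

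Mutation 1 against mutation 2 gave the deepest contrast among them. Of 76 members, 39 fell (51.3%) and 9 rose (11.8%), against 33.6% lower and 31.8% higher among all genes, and the medians were -0.28 for members and -0.03 for all genes. Wild-type replicate 1 enters this comparison only through the shared scaling, filter and estimate of spread; without it 44 were lower and 18 higher, against 40.6% and 39.6% of all genes. The mutation 2 libraries had 4.71, 5.70 and 6.37 CPM of MRPS17, and its log2 fold change, mutation 1 over mutation 2, was -2.22 ± 0.24 (adjusted p = 1.11e-05). For MRPL1 the mutation 2 libraries had 26.8, 24.2 and 23.8 CPM, and the log2 fold change was -1.76 ± 0.11 (adjusted p = 1.65e-07). MRPS18C and MRPL47 fell by 1.71 and 1.56 on the log2 scale, with mutation 2 means of 14.5 ± 0.995 and 43.1 ± 2.20 CPM. MRPL15, a core protein of the large subunit, was at 17.2, 17.5 and 16.3 CPM with mutation 1, against 45.5, 46.4 and 47.4 CPM with mutation 2 (log2 fold change -1.45 ± 0.06, adjusted p = 1.18e-08). These 5 genes were chosen among members without overlap between the groups.

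**Figure D3:**
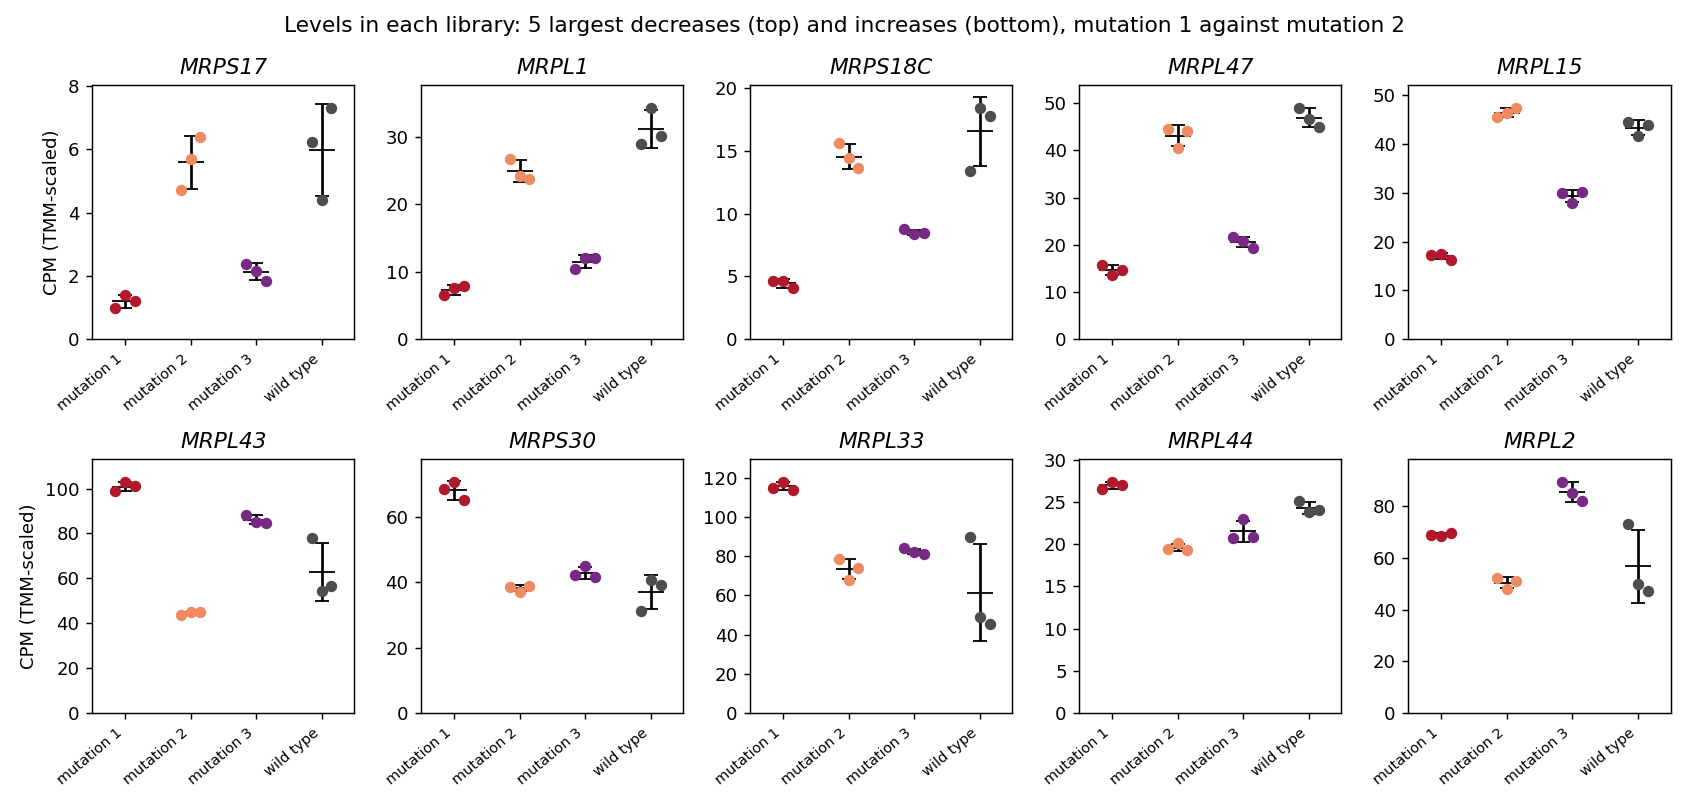
CPM (vertical axis, starting at 0) of 10 members in each library with mutation 1, mutation 2, mutation 3 and wild type; points are libraries, and bars are the mean ± SD of 3. The upper row holds the 5 largest decreases and the lower row the 5 largest increases of mutation 1 against mutation 2, such as MRPS17 at 1.20 against 5.59 CPM and MRPL43 at 101 against 44.5 CPM.

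The 9 members higher with mutation 1 than with mutation 2 were MRPL43, MRPS30, MRPL33, MRPL44, MRPL2, MRPL10, MRPL23, MRPL55 and MRPL42. MRPL43 (chr10:100969458-100987515) had 98.7, 103 and 101 CPM with mutation 1, against 43.7, 44.8 and 45.0 CPM with mutation 2, a log2 fold change of 1.18 ± 0.11 (adjusted p = 4.77e-06). Against wild type it was higher with mutation 1 and mutation 3 and lower with mutation 2, at 0.68, 0.45 and -0.50 on the log2 scale; in fits of only the groups compared its calls with mutations 2 and 3 were lost, at adjusted p = 0.0942 and 0.0747. Its exons overlap SEMA4G and TWNK on the other strand over 1319 bases. MRPS30 was at 68.2 ± 2.87 CPM with mutation 1 and 38.2 ± 0.939 CPM with mutation 2, and MRPL44, which carries a ribonuclease III-like domain, at 27.0 ± 0.434 and 19.6 ± 0.455 CPM. Their log2 fold changes were 0.84 and 0.46 (adjusted p = 1.44e-05 and 0.00011). MRPL33 rose by 0.65 on the log2 scale (adjusted p = 0.016), a call that was lost without mutation 1 replicate 2 and without mutation 2 replicate 2, at adjusted p = 0.0534 and 0.0593, and without the low-count filter, at 0.064. MRPL2 rose by 0.45, and the other 4 by 0.25 to 0.32. The calls of MRPL55 and MRPL23 were lost without the low-count filter, at adjusted p = 0.0859 and 0.107, and without 5 and 9 single libraries, at 0.0593 to 0.132 and 0.0543 to 0.124.

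Mutation 1 against mutation 3 gave 28 members lower (36.8%) and 7 higher (9.21%), against 22.5% lower and 20.2% higher among all genes, with medians of -0.11 and -0.01. Leaving out wild-type replicate 1 gave 35 lower and 16 higher, against 33.6% and 32.9% of all genes. The count of higher members was 4 without mutation 1 replicate 2, 3 without mutation 1 replicate 3, 2 without mutation 3 replicate 2 and 3 without mutation 3 replicate 3. Shares of all genes in those fits are not given, so that a fall over all genes cannot be told apart. Among decreases MRPL58 had the largest, at 10.0 ± 0.493 CPM with mutation 1 and 28.3, 25.3 and 24.9 CPM in the mutation 3 libraries, a log2 fold change of -1.38 ± 0.09 (adjusted p = 1.57e-06). With mutation 2 the same gene was at 28.9, 23.8 and 26.4 CPM, so that mutation 1 stood below both other mutations. MRPS23 was at 21.7 ± 1.55 CPM with mutation 1 and 46.5 ± 1.93 CPM with mutation 3, and MRPS18A at 5.78 ± 0.571 and 12.2 ± 1.23 CPM, with log2 fold changes of -1.10 and -1.08. MRPS18C and MRPL15 fell by 0.94 and 0.79.

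The members higher with mutation 1 than with mutation 3 were MRPS24, MRPS30, MRPL19, MRPL41, MRPL44, MRPL34 and MRPL42. MRPS30 was at 42.1, 44.9 and 41.6 CPM with mutation 3, below its mutation 1 libraries without overlap (log2 fold change 0.67 ± 0.09, adjusted p = 0.000204). MRPS24 rose by 1.56, a call lost without mutation 1 replicate 3, mutation 3 replicate 2 or mutation 3 replicate 3, at adjusted p of 0.0591 to 0.0638. The call of MRPL42, at 0.23, was lost without mutation 3 replicate 2, at 0.0502, and without the low-count filter, at 0.0907. The call of MRPL19, at 0.57 on the log2 scale, was lost when any 1 library of mutation 1 or mutation 3 was left out, at adjusted p of 0.0644 to 0.0767. The calls of MRPL41 and MRPL34, at 0.33 and 0.24, were lost without 5 and 4 of those 6 libraries, taken 1 at a time, at adjusted p of 0.0847 to 0.104 and 0.05 to 0.0604, and that of MRPL34 also without the low-count filter, at 0.0906.

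Mutation 3 against mutation 2 gave 28 members lower (36.8%) and 7 higher (9.21%), against 27.2% lower and 25.7% higher among all genes, with medians of -0.15 and 0.00. Without wild-type replicate 1, 41 were lower and 16 higher, against 36.6% and 36.3% of all genes. Leaving out mutation 2 replicate 3 gave 4 higher, and the share of all genes in that fit is not given. MRPS17 fell by 1.39, MRPL1 by 1.12, MRPL47 by 1.07, MRPS11 by 0.90 and MRPL20 by 0.88 on the log2 scale, each with an adjusted p of 0.00035 or less. Higher with mutation 3 were MRPL43, MRPL38, MRPL2, MRPL10, MRPL55, MRPS36 and MRPL9. MRPL10, which holds the copies of MRPL12 on the stalk that recruits elongation factors, was at 52.1, 50.8 and 51.4 CPM with mutation 3, against 32.2, 29.9 and 32.8 CPM with mutation 2, without overlap (log2 fold change 0.70 ± 0.07, adjusted p = 7.42e-06). The call of MRPL38, at 0.86, was lost without mutation 2 replicate 1 and without mutation 2 replicate 3, at adjusted p = 0.0559 and 0.0648. Those of MRPS36 and MRPL9, at 0.43 and 0.19, were lost without the low-count filter, at 0.0726 and 0.186, and without 10 and 7 single libraries, at 0.0553 to 0.181 and 0.0503 to 0.144.

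Members with MRPL and with MRPS symbols were more often lower than higher with mutation 1 relative to mutation 2. This split is by symbol, so that MRPS30 and MRPS18A of the large subunit, and MRPS36, count as MRPS. Of 48 tested MRPL members 24 fell and 8 rose, with a median of -0.22, beside 33.6% lower and 31.8% higher among all genes. Of 28 tested MRPS members 15 fell and 1, MRPS30, rose at a median of -0.37. The same counts in the fit that left out wild-type replicate 1 were 28 and 12 for MRPL, and 16 and 6 for MRPS. In that fit 40.6% of all genes were lower and 39.6% higher. Against mutation 3, 13 of 48 MRPL members fell (27.1%) and 15 of 28 MRPS members (53.6%), beside 22.5% lower among all genes, a share near that of the MRPL members. Without wild-type replicate 1 the MRPL and MRPS shares were 39.6% and 57.1%, beside 33.6% of all genes. No test was made of the difference between MRPL and MRPS members.

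By origin, 17 of 30 large subunit proteins with a bacterial homologue fell with mutation 1 relative to mutation 2, with a median of -0.32, and 8 of 20 mitochondria-specific ones (40%), with a median of -0.11. The share of all genes lower in that comparison was 33.6%. In the small subunit, 10 of 16 proteins with a bacterial homologue fell, with a median of -0.59, and 4 of 9 mitochondria-specific ones (44.4%), with a median of -0.12. In this fit of all libraries, both mitochondria-specific shares lie near the background. Without wild-type replicate 1, 55.0% and 55.6% of mitochondria-specific proteins fell in the large and small subunit, against 40.6% of all genes. The shares with a bacterial homologue were then 60.0% and 62.5%, so that the classes differed less. The 10 small subunit proteins that fell in the fit of all libraries were MRPS17, MRPS18C, MRPS11, MRPS16, MRPS28, MRPS9, MRPS12, MRPS21, MRPS7 and MRPS14. MRPS12, the decoding-centre protein homologous to bacterial S12, was at 26.8, 27.0 and 26.9 CPM with mutation 1, against 45.7, 44.7 and 46.0 CPM with mutation 2 (log2 fold change -0.76, adjusted p = 3.04e-07). MRPS18A and MRPS30 are counted with the large subunit in these groups.

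**Figure D4:**
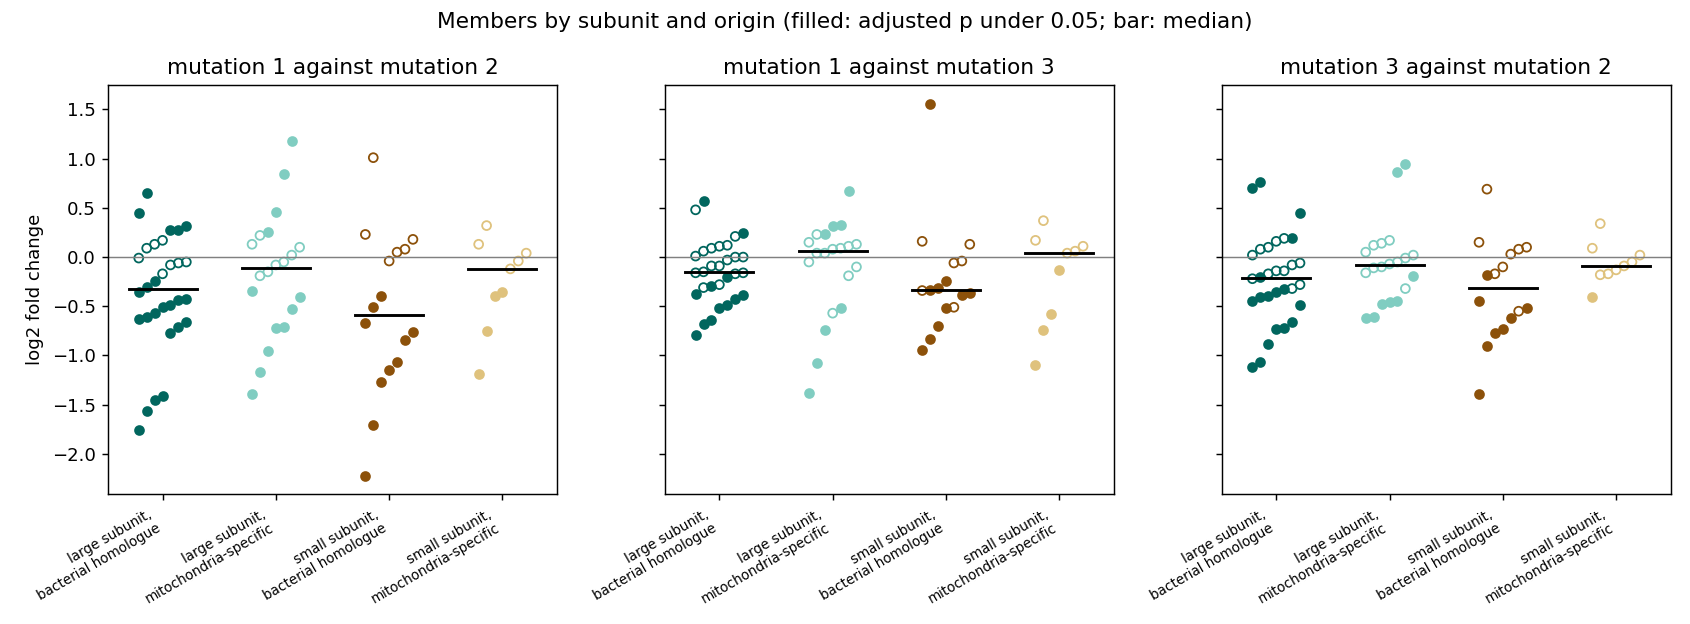
Log2 fold change (vertical axis) of members grouped by subunit and origin, for mutation 1 against mutation 2, mutation 1 against mutation 3 and mutation 3 against mutation 2; filled points passed adjusted p under 0.05, and bars are medians. For mutation 1 against mutation 2 the medians are -0.32, -0.11, -0.59 and -0.12 from left to right.

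Within the large subunit, members of the polypeptide exit ring (MRPL17, MRPL22, MRPL23, MRPL24 and MRPL47 tested) comprised 4 that fell and 1, MRPL23, that rose with mutation 1 relative to mutation 2. Of 6 central protuberance members, MRPL18, MRPL27, MRPL40 and MRPL46 fell. Among all genes 33.6% were lower, and these groups are small. Without wild-type replicate 1, 4 of 5 exit ring and 5 of 6 central protuberance members fell, beside 40.6% of all genes. In the fit of all libraries MRPL12, which contacts the elongation factors from the stalk, fell by 0.66. MRPL10 rose by 0.32, and MRPL11 was not called, at -0.06. Members without any exon base shared with another gene gave 20 lower and 3 higher of 35, with a median of -0.35, and those that share exons gave 19 lower and 6 higher of 41, at a median of -0.08. In the fit that left out wild-type replicate 1, 6 and 12 of these were higher and 23 and 21 lower, beside 39.6% higher and 40.6% lower among all genes. Of the 70 members at 10 CPM or more on average, 35 fell (50%) and 9 rose (12.9%), beside 33.6% lower and 31.8% higher among all genes. When wild-type replicate 1 was left out, 40 fell and 17 rose, beside 40.6% lower and 39.6% higher among all genes. Across the 76 members, Spearman's rho between the log2 fold change of mutation 1 against mutation 2 and the mean log2 RPKM was 0.22 (Pearson's r 0.21), and that with exon length 0.12 (Pearson's r 0.14), where members share the same libraries and are not independent.

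Starts of 29 members lie within 1000 bases of the start of a protein-coding gene on the other strand, and 25 distinct pairs could be tested. In 13 of them a member fell with mutation 1 relative to mutation 2; in 7 of the 13 the partner fell as well, beside 33.6% lower of all genes, in 2 it rose, and in 4 it was not called. MRPL46 and MRPS11, both members, start 34 bases apart on chromosome 15 and fell by 0.53 and 1.27 on the log2 scale. MRPL57 starts 43 bases from SKA3, a kinetochore gene that fell by 2 on that scale, and MRPL50 starts 259 bases from ZNF189, which fell by 2.64. Other pairs moved apart. MRPL47 fell by 1.56, while NDUFB5, a complex I subunit gene that starts 36 bases away, had a log2 fold change of 0.18 (adjusted p = 0.0934). MRPL43 rose by 1.18, while TWNK, the mitochondrial DNA helicase gene whose start lies inside MRPL43, fell by 1.30 (adjusted p = 1.4e-06).

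Genes that work with the mitochondrial ribosome were lower with mutation 1 than with mutation 2 as well. Of 27 tested assembly and rRNA modification genes 18 fell, 4 rose and the median was -0.80, beside 33.6% lower of all genes. MRM2, a methyltransferase of the large mitochondrial rRNA, was at 4.81 ± 0.233 CPM with mutation 1 and 46.1 ± 1.34 CPM with mutation 2 (log2 fold change -3.26, adjusted p = 8.87e-10). DDX28, a helicase of large subunit assembly, was at 0.543 ± 0.29 and 10.3 ± 1.43 CPM (log2 fold change -4.26, adjusted p = 4.5e-07). Of 15 translation factor genes 10 fell and 2 rose, with a median of -0.52; PDF, which deformylates new mitochondrial peptides, fell by 3.30, and MTRFR by 2.19. Of 19 transcription and RNA processing genes 13 fell and 2 rose, with a median of -0.89, led by TRMT10C, a subunit of mitochondrial RNase P, at 3.28 ± 0.644 CPM with mutation 1 and 36.3 ± 5.05 CPM with mutation 2. Of 18 aminoacyl-tRNA synthetase genes 9 fell and 3 rose, with PARS2 at -3.24 and MARS2 at -2.98. Without wild-type replicate 1, 5 of them rose, beside 39.6% of all genes. Of the 5 mitoribosome proteins with other names, GADD45GIP1, DAP3 and AURKAIP1 fell and CHCHD1 rose.

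The transcripts that these ribosomes translate had a lower median than the members. Of 13 mitochondrially encoded mRNAs 11 fell with mutation 1 relative to mutation 2, at a median of -2.28 (all 13 when wild-type replicate 1 was left out), and MT-ND1 was at 256 ± 12.4 CPM with mutation 1 and 5061 ± 624 CPM with mutation 2 (log2 fold change -4.30, adjusted p = 4.04e-05). Their summed level was 13892 to 14877 CPM with mutation 1, 42154 to 52853 CPM with mutation 2 and 49126 to 51918 CPM with mutation 3. In the summed level of these mRNAs, wild-type replicate 1, at 12413 CPM, was below each mutation 1 library. The median over these mRNAs of log2(CPM + 0.5), each centred on its mean over 12 libraries, gave the reverse order. Wild-type replicate 1 lay at -1.129, above the mutation 1 libraries at -1.542, -1.625 and -1.645. Its summed level of member transcripts, 3785 CPM, was the highest of all libraries. The ribosomal RNAs MT-RNR1 and MT-RNR2 each had a log2 fold change of 0.28 with mutation 1 relative to mutation 2 (adjusted p = 0.683 and 0.488). Both were called higher in that comparison without wild-type replicate 1. MT-RNR2 rose by 1.15 with mutation 3 relative to mutation 2 (adjusted p = 0.0157). Poly(A) selection bears on the recovery of these RNAs, and its part was not tested.

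Between mutations 1 and 2, cytosolic ribosomal protein genes differed in the other direction. Of 81 tested, 72 rose and 2 fell with mutation 1 relative to mutation 2, beside 31.8% higher and 33.6% lower among all genes. Their median was 0.68. Against wild type, 61 rose and 7 fell with mutation 1, and 47 rose and 7 fell with mutation 3, beside 32.5% and 28.1% higher among all genes. With mutation 2, 55 fell (67.9%) and 2 rose at a median of -0.33, the direction of the members, beside 20.1% lower among all genes. The summed level of cytosolic ribosomal protein genes was 64725 ± 1721, 40266 ± 713 and 58793 ± 538 CPM with mutations 1, 2 and 3, against 49429 ± 2925 CPM with wild type. Nuclear-encoded complex I genes were split between mutations 1 and 2, with 10 of 35 lower and 9 higher at a median of 0.02. Without wild-type replicate 1, 13 were lower and 15 higher. Against wild type, complex I genes were mostly lower, as members were. With mutations 1, 2 and 3, 54.3%, 51.4% and 51.4% fell, against 36.5%, 20.1% and 31.2% of all genes, while 6, 1 and 4 complex I genes rose. Their medians were -0.28, -0.24 and -0.32. Without wild-type replicate 1, 52.8%, 58.3% and 52.8% fell, against 42.5%, 34.9% and 38.8% of all genes. Among 9 regulators of mitochondrial gene transcription, 4 fell and 3 rose with mutation 1 relative to mutation 2. NRF1 was at 11.5 ± 0.616 CPM with mutation 1 and 25.5 ± 1.55 CPM with mutation 2 (log2 fold change -1.15, adjusted p = 9.9e-07), while PPARGC1A was at 16.0 ± 1.27 and 1.91 ± 0.532 CPM (log2 fold change 3.05, adjusted p = 2.55e-06). GABPA, the DNA-binding subunit for the ETS letters searched above, had a log2 fold change of 0.04 (adjusted p = 0.761), and MYC rose by 0.96.

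**Figure D5:**
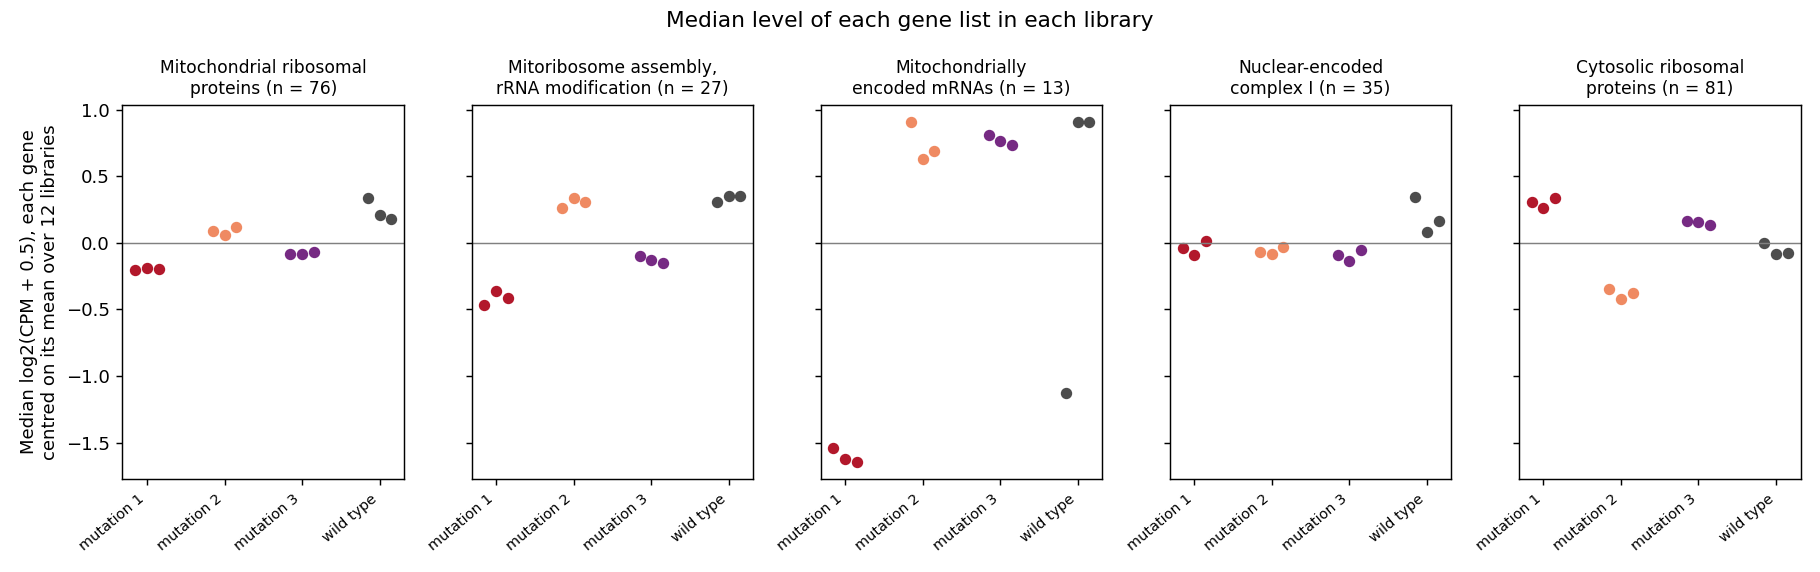
Median log2(CPM + 0.5) of 5 gene lists in each library (vertical axis), after each gene was centred on its mean over 12 libraries, for mutation 1, mutation 2, mutation 3 and wild type. Wild-type replicate 1 lies at -1.13 for the mitochondrially encoded mRNAs, against 0.905 and 0.909 in wild-type replicates 2 and 3, and at 0.337 for the mitochondrial ribosomal proteins, against 0.208 and 0.179.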

How the data were processed

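RNA from 12 libraries of transfected MDA-MB-231 cells was analysed, 3 in each of 4 groups taken from the labels. The deposited values are raw counts, each the read pairs assigned to a gene. Per the file headers, they came from featureCounts 2.0.6 on hg38, over exons by gene ID, unstranded, at a minimum mapping quality of 10, without assigning pairs that fall on several genes. The submitters' processing notes name STAR, SAMtools, DESeq2, FastQC 0.11.8 and cutadapt 1.9.1; versions of the first 3 are not given in the sources used here. Leaving out pairs that map to several places or lie on several genes lowers counts of genes with near-identical copies or shared exons.

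Counts were tested with edgeR 4.0.16 (R 4.3.3): TMM scaling, filterByExpr (minimum count 10, minimum total 15), robust quasi-likelihood fit of all 12 libraries with 8 residual degrees of freedom, and Benjamini-Hochberg adjustment over 15094 genes. Standard errors were derived from each log2 fold change and its F. The test was tried on simulated counts with known changes. RPKM used exon lengths from GENCODE v29. Alternatives were DESeq2 1.42.0, RLE scaling, no filter, non-robust fitting, a fit of only the 2 groups compared, and leaving out each library.

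The members, gene lists and tests were chosen with earlier results of these data known. Named in each comparison were the 5 called members with the largest increase and the 5 with the largest decrease, at 5 CPM or more in the higher group and without overlap, members against the majority direction, those with opposite calls, the extremes by RPKM and the S18 paralogues. In other lists the largest changes among mutations were named. MRPS24, MRPL12, MRPL11, MRPS12 and the head-to-head pairs were named after their values were seen, as were the genes given only by their log2 fold change after the 5 largest.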

Additional observations from a re-analysis of the deposited data

How the results depend on the processing

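Wild-type replicate 1 and the number of groups in the fit moved the counts of members called higher most; the cause was not tested. With only the 2 groups compared in the fit, members higher numbered 5 for mutation 1, 0 for mutation 2 and 3 for mutation 3 against wild type, and 16 for mutation 1 against mutation 2, 15 for mutation 1 against mutation 3 and 17 for mutation 3 against mutation 2. For the 0, edgeR gave 2 members higher at an unadjusted p under 0.05, and DESeq2 called 3. In that fit 13 members were lower with mutation 2 than with wild type, and the median of mutation 1 against mutation 3 was -0.12. Shares of all genes called in these fits of 2 groups are not given. The counts therefore do not tell a change in members from one over all genes. RLE scaling and DESeq2 each gave medians of -0.25 for mutation 1 against mutation 2 and -0.08 for mutation 1 against mutation 3.

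Leaving out 1 library at a time gave the following ranges. Against wild type, members higher ran from 6 to 18, 2 to 16 and 6 to 17 with mutations 1, 2 and 3, members lower from 41 to 47, 21 to 35 and 35 to 45, and medians from -0.48 to -0.39, -0.16 to -0.12 and -0.34 to -0.26. For mutation 1 against mutation 2, higher ran from 6 to 18, lower from 34 to 44 and the median from -0.32 to -0.25. For mutation 1 against mutation 3, the ranges were 2 to 16, 20 to 35 and -0.12 to -0.08, and for mutation 3 against mutation 2 they were 4 to 16, 22 to 41 and -0.17 to -0.14. The F test over mutations called 45 to 69. The highest count of members higher in each comparison came without wild-type replicate 1. For mutation 2 against wild type, 33% of all genes were higher in that fit, and 16.9% with all libraries. The share of all genes is not given for the other libraries left out. The ranges therefore do not tell a change in members from one over all genes.

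The alternatives were counted for 57 comparisons, those of the called members with the largest changes, above the CPM limit and without overlap. Of their 969 values under 17 alternatives, 941 kept their direction and call, 28 lost the call and 0 reversed. That choice favours calls that are kept. Other members named above, such as MRPS33, MRPL32, MRPS27 and MRPL23, are outside this count, and their lost calls are given where they are named. The count therefore does not describe the calls of all members. No paired analysis was possible because the mutant libraries carry no replicate numbers in the labels.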
